A study of Mus musculus with 4 samples.

Results

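The mitotic kinesins are the motor proteins that build the spindle, move chromosomes on it and divide the cell after it. They were examined here as 10 genes, Kif11, Kif15, Kifc1, Kif22, Kif4, Kif2c, Kif18a, Kif23, Kif20a and Kif14, out of 18193 genes named on the array. Their members are the 20 probe sets, of 45101 on the array, whose only annotated gene symbol is 1 of these 10. Kinesins are enzymes that turn the energy of ATP into steps along microtubules, or into the removal of tubulin from microtubule ends. The mitotic members are made mainly in cells that pass through G2 and mitosis, and their transcripts are scarce in resting adult hepatocytes. Liver regrows after resection largely by division of hepatocytes that were resting before, so these transcripts are commonly used to follow cells on their way to division.

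The samples were regenerating livers of BALB/c nu/nu nude mice, which lack mature T cells. The OGFRL1 group (2 arrays) had received human bone marrow mesenchymal stem cells that expressed OGFRL1, and the EGFP group (2 arrays) the same kind of cells expressing EGFP, a green fluorescent protein. Every mouse had been given carbon tetrachloride, a liver toxin that causes fibrosis, 23 times at 0.25 ml/kg, then 1000000 cells by injection into the spleen, and a partial hepatectomy on day 21. Liver was taken on day 8 after hepatectomy, and 100 ng of total RNA was labelled per array. Whether a group's 2 arrays stand for different mice is not stated, so the p-values reflect the scatter among arrays, which may be technical. The arrays carry mouse probe sets, so transcripts of the transplanted human cells were not targeted, and cross-hybridisation of human RNA was not tested.

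Median signals were 12.3 and 11.6 on the OGFRL1 arrays and 12.5 and 12.2 on the EGFP arrays. Spike-in controls, usually added at the same dose to every sample, were lower on the OGFRL1 arrays, by a mean log2 fold change of -0.43 for the 4 Cre probe sets and of -0.32 for the 14 probe sets of BioB, BioC and BioD. The median log2 fold change over the 11942 genes tested was 0.04. The labelled tissue was checked by its markers, among which Alb, serum albumin, read 7041 and 7930 on OGFRL1 arrays and 16107 and 9313 on EGFP arrays. In bulk tissue, fewer cells of a type and less RNA per cell cannot be told apart.

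Of the 10 mitotic kinesins, 8 were bright enough to be tested, and in OGFRL1 livers their brightest probe sets stood 1.82 to 3.60 times as high as in EGFP livers. Fold changes are differences of log2(signal + 3.51), so they understate those of dim genes, and the threshold was an adjusted p of 0.05 over all genes tested. By their brightest probe sets Kif22 and Kif2c rose past it (limma adjusted p = 0.0433 for both), as did 0.36% of all genes tested. The other 6 missed it, with limma adjusted p from 0.0554 to 0.202. An unadjusted p under 0.05 was reached upward by the 8, against 9.01% of all genes tested. The median log2 fold change of the 8 was 1.72, against 0.04 over all genes tested. Both OGFRL1 arrays lay above both EGFP arrays for each of the 8, as they did for 27% of all genes tested. Kif18a passed the minimum of 11.6 for the mean signal only through the OGFRL1 arrays, so its place among the 8 depended on the difference itself. The probe sets of Kif15 and Kif14 were below the minimum, and are given as values only.

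**Figure D1:**
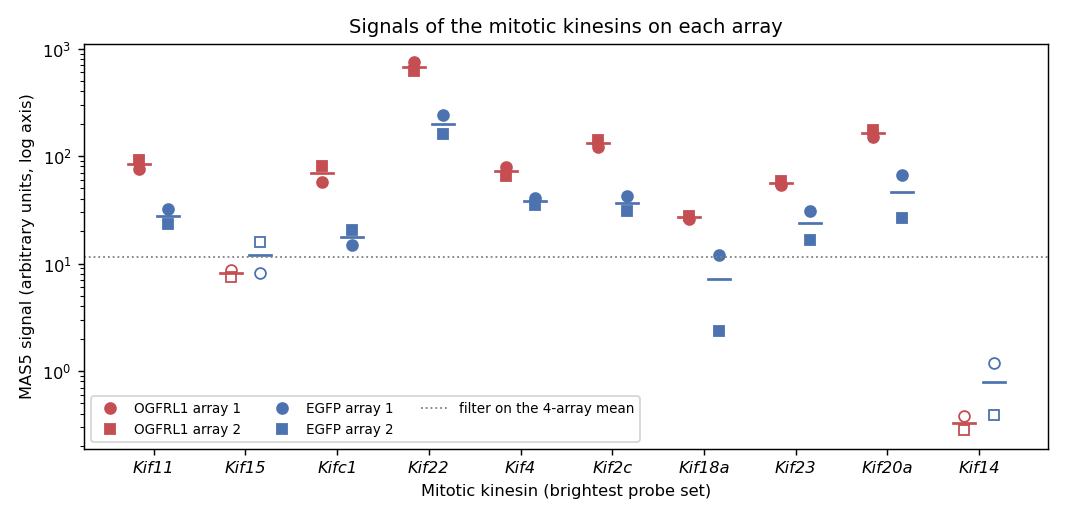
MAS5 signal (log axis) of the brightest probe set of each mitotic kinesin on the OGFRL1 arrays (red) and EGFP arrays (blue), with bars at the group means and a dotted line at the minimum mean signal for testing. Filled symbols are the 8 tested genes, whose OGFRL1 arrays all lie above their EGFP arrays, and open symbols are Kif15 and Kif14.

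Many genes of late cell cycle phases share short promoter elements near the start of transcription. The cell cycle genes homology region binds the DREAM and MuvB complexes, which keep such genes off in resting cells and on in G2, and it is often preceded by CCAAT boxes, which bind NF-Y. The RefSeq promoter table (GRCm38.p6) was matched for 9 of the 10 kinesins, and Kif20a was not analysed for sequence. Promoters were examined because most of these kinesins differed in the same direction between the groups. The stretches below run from 70 bases before the annotated start to 28 bases after it. Only stretches with a match are printed, so those of Kif2c and Kif14, which held none, are left out. Capitals mark TTTGAA for the homology region, CCAAT for the CCAAT box and TTTGGCGC for E2F, each on either strand. On the opposite strand TTTGAA reads as TTCAAA, the CCAAT box as ATTGG and the E2F motif as GCGCCAAA. In Kif15 the capitals join an E2F match and the TTTGAA match that directly follows it, which share no base.
Kif11 (chr19:37376312-37376409, plus strand): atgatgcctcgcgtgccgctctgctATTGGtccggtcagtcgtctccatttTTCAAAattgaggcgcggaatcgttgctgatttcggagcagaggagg
Kif15 (chr9:122951011-122951108, plus strand): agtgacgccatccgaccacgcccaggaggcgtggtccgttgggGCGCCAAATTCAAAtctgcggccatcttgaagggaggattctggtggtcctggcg
Kifc1 (chr17:33890606-33890703, minus strand): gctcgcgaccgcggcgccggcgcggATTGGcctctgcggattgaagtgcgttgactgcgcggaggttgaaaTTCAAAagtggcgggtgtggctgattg
Kif22 (chr7:127042393-127042490, minus strand): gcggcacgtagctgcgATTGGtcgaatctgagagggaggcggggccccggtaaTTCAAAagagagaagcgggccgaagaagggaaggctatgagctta
Kif4 (chrX:100625995-100626092, plus strand): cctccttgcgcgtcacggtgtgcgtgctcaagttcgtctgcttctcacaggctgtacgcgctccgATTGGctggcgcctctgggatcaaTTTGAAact
Kif23 (chr9:61946772-61946869, minus strand): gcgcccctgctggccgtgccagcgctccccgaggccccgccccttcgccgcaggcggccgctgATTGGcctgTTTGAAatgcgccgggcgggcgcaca
Kif18a (chr2:109280668-109280765, plus strand): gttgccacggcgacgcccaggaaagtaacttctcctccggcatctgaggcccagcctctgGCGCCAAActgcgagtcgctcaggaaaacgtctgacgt

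The homology region motif (TTTGAA or TTCGAA) was found in this stretch for 6 of the 9 kinesins, Kif11, Kif15, Kifc1, Kif22, Kif4 and Kif23. Of 32851 promoters in the table, 5.38% held it in the same 98 bases. In 5 of these 6 a CCAAT match stood upstream of it in the stretch, with 9 to 46 bases from the first base of the one to that of the other, while 0.947% of all promoters held both in any order. An E2F motif, searched for as TTTCCCGC or as TTTGGCGC or as TTTCGCGC or as TTTGCCGC, was found for Kif15 and Kif18a, against 0.81% of all promoters. The stretch was set after the positions of the matches were seen. Over the whole 300 bases of each entry, 8 of 9 kinesins and 19.2% of all promoters held the homology region motif. There a CCAAT box was held by 6 of 9 kinesins and 37.4% of all promoters. An E2F motif was held there by 2 of 9 kinesins and 2.26% of all promoters. Kif2c, which rose, had no match in its stretch, while Kif15, which was too dim to test, had 2 kinds. A match is a description of these letters and was not tested for binding.

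Kif11 is the plus-end motor that slides antiparallel microtubules apart and so makes the spindle bipolar. Its signal was 76.5 and 92.2 in OGFRL1 livers, against 32.4 and 23.4 in EGFP livers. The groups did not overlap, and the log2 fold change of 1.49 ± 0.24 (SE) missed the threshold (limma adjusted p = 0.0572). A second Kif11 probe set had 47.0 and 43.0 in OGFRL1 livers and 21.3 and 11.4 in EGFP livers, a log2 fold change of 1.33 ± 0.31, which is within the error of the first. The third was dim, with signals from 2.65 to 9.95 over the 4 arrays.

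Kifc1 is the minus-end motor that crosslinks spindle microtubules, pulls against Kif11 and focuses the poles. It had signals of 57.4 and 81.0 in OGFRL1 livers, against 14.7 and 20.6 in EGFP livers. Each OGFRL1 array was well above both EGFP arrays, and the log2 fold change was 1.77 ± 0.28 (limma adjusted p = 0.0554). Kifc1 has a close paralog in the mouse, Kifc5b, and its only probe set bears the suffix for probes shared between transcripts, so the assignment of this signal to 1 gene is uncertain. The Kifc5b probe set was below the minimum, with 8.26 and 6.57 in OGFRL1 livers and 11.6 and 0.914 in EGFP livers. Kif15, a plus-end motor that can keep the spindle bipolar when Kif11 is blocked, had signals of 8.77 and 7.46 in OGFRL1 livers, against 8.24 and 15.7 in EGFP livers. These groups overlapped, and the single Kif15 probe set gave no difference beyond its spread (log2 fold change -0.37, limma adjusted p = 0.772 without a filter).

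Kif22 and Kif4 are chromokinesins, motors that bind DNA and push chromosome arms away from the poles. Kif22 read 744 and 614 in OGFRL1 livers, against 240.0 and 159 in EGFP livers. By this brightest probe set it rose in OGFRL1 livers by a log2 fold change of 1.77 ± 0.22 (limma adjusted p = 0.0433). That probe set bears the suffix for probes that may match other sequences. The 3 Kif22 probe sets did not give the same difference. The second, with 78.3 and 79.3 in OGFRL1 livers and 34.5 and 9.27 in EGFP livers, gave 1.90 ± 0.48, and the third gave 0.17 ± 0.22. The last of these read 40.3 and 45.7 in OGFRL1 livers, against 39.2 and 36.3 in EGFP livers, and of the 3 it alone has the plain suffix given to probes that match a single transcript.

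Kif4, which also sets the length of the midzone microtubules together with Prc1, had the smallest difference of the 8. Its signals were 78.8 and 65.0 in OGFRL1 livers, against 40.7 and 35.0 in EGFP livers. The arrays of the groups stood apart, but the log2 fold change of 0.86 ± 0.21 did not pass over all genes (limma adjusted p = 0.138). Whether Kif4 differed from the other kinesins in its change was not tested.

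Kif2c and Kif18a act on microtubule ends. Kif2c is a depolymerase of centromeres and kinetochores that helps to undo wrong attachments. It had signals of 120.5 and 142 in OGFRL1 livers, against 42.4 and 31.0 in EGFP livers, and rose by a log2 fold change of 1.76 ± 0.22 (limma adjusted p = 0.0433). The brightest Kif2c probe set bears the suffix for probes that may match other sequences. The next read 42.7 and 47.7 in OGFRL1 livers and 36.6 and 20.6 in EGFP livers, a log2 fold change of 0.64 ± 0.30, and the third gave 1.09 ± 0.59. These differences were about 2 SE or less, and the third passed the minimum only through the OGFRL1 arrays, with a mean of 7.91 over the EGFP arrays. The fourth, below the minimum, overlapped, with 1.66 and 2.36 in OGFRL1 livers and 0.284 and 5.95 in EGFP livers (log2 fold change -0.12).

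Kif18a is a motor that dampens the swings of chromosomes at the metaphase plate. Its signals were 26.1 and 27.8 in OGFRL1 livers, against 12 and 2.35 in EGFP livers, the last below the pseudocount of 3.51. The 2 EGFP arrays were further apart than for any other tested member on the log2 scale, and the log2 fold change of 1.67 ± 0.51 had the largest error (limma adjusted p = 0.202). It was 2.38 without EGFP array 1 and 0.97 without EGFP array 2. The other Kif18a probe set, below the minimum, overlapped, with 0.19 and 0.482 in OGFRL1 livers and 0.215 and 0.132 in EGFP livers (log2 fold change 0.06).

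Kif23, Kif20a and Kif14 serve cytokinesis. Kif23 forms the centralspindlin complex with Racgap1 and bundles the midzone. It read 54.3 and 58.1 in OGFRL1 livers, against 31.1 and 16.5 in EGFP livers, with no overlap and a log2 fold change of 1.18 ± 0.31 (limma adjusted p = 0.155). A second Kif23 probe set, below the minimum, had 11.4 and 10.7 in OGFRL1 livers and 4.82 and 1.40 in EGFP livers. The third, also below it, overlapped, with 3.47 and 3.33 in OGFRL1 livers and 6.13 and 0.148 in EGFP livers (log2 fold change 0.22). Kif20a carries the chromosomal passenger complex to the midzone. It read 150.2 and 174 in OGFRL1 livers, against 67.3 and 26.2 in EGFP livers, the largest difference of the 8 at a log2 fold change of 1.85 ± 0.39 (limma adjusted p = 0.10). The EGFP arrays differed so much that it was 2.48 without EGFP array 1 and 1.22 without EGFP array 2. Kif14, a midbody motor that works with citron kinase, had signals of 0.379 and 0.28 in OGFRL1 livers and 1.18 and 0.389 in EGFP livers, too dim to compare.

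**Figure D2:**
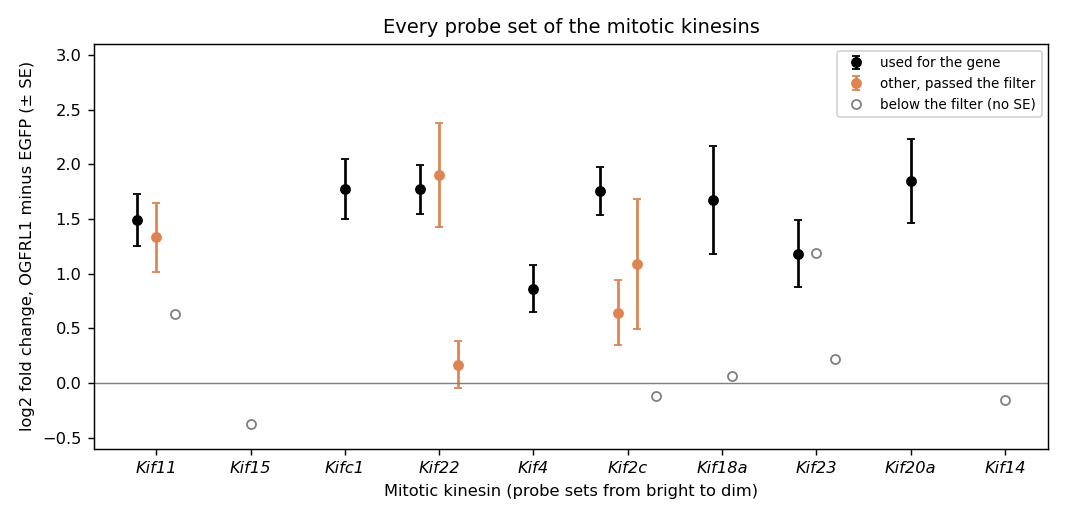
Log2 fold change, OGFRL1 minus EGFP, of all 20 probe sets of the mitotic kinesins, ordered from bright to dim within each gene. Bars are the SE of the fit of all probe sets, and open points are the 7 probe sets below the minimum. The probe sets of Kif22 run from 0.17 to 1.90, and those of Kif2c from -0.12 to 1.76.

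Of the 20 probe sets, 13 passed the minimum, and for each of the 13 both OGFRL1 arrays lay above both EGFP arrays, against 25.7% of the 22516 probe sets tested. For 2 of the 13, that of Kif18a and the third of Kif2c, the minimum was reached only through the OGFRL1 arrays, so the filter helped to set their direction. Of the 7 below the minimum, 2 had both OGFRL1 arrays above both EGFP arrays. In the fit of all probe sets 0 of the 13 passed the threshold, as 0.151% of all probe sets did upward, and 10 had an unadjusted p under 0.05, against 8.16% of all probe sets. There the brightest probe sets of Kif22 and Kif2c had the log2 fold changes given above with an adjusted p of 0.0511. Both calls were thus close to the threshold. They were also lost after quantile normalization (adjusted p = 0.0556), under a stricter filter (0.0535), without a filter (0.0887 and 0.0912), without an intensity trend (0.151 and 0.15) and with the mean over each gene's probe sets (log2 fold change 1.28 for Kif22 and 0.84 for Kif2c). With the filter dropped, or with no trend, 0 of all genes passed in limma. An unadjusted p under 0.05 was reached by 8 of the 10 kinesins tested with no filter and by the 8 tested with no trend. The share of all genes at that p is not given for these settings, so these counts cannot be read as an excess.

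How many kinesins passed depended on the array left out. Such a fit leaves 1 array in a group, so only effect sizes are given here. The median log2 fold change of the 8 was 1.83 without EGFP array 1 and 1.26 without EGFP array 2. It was 1.68 without OGFRL1 array 1 and 1.59 without OGFRL1 array 2. EGFP array 1 read higher than EGFP array 2 for 7 of the 8, Kifc1 being the exception. OGFRL1 array 2 read higher than OGFRL1 array 1 for 6 of the 8, Kif22 and Kif4 being the exceptions.

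**Figure D3:**
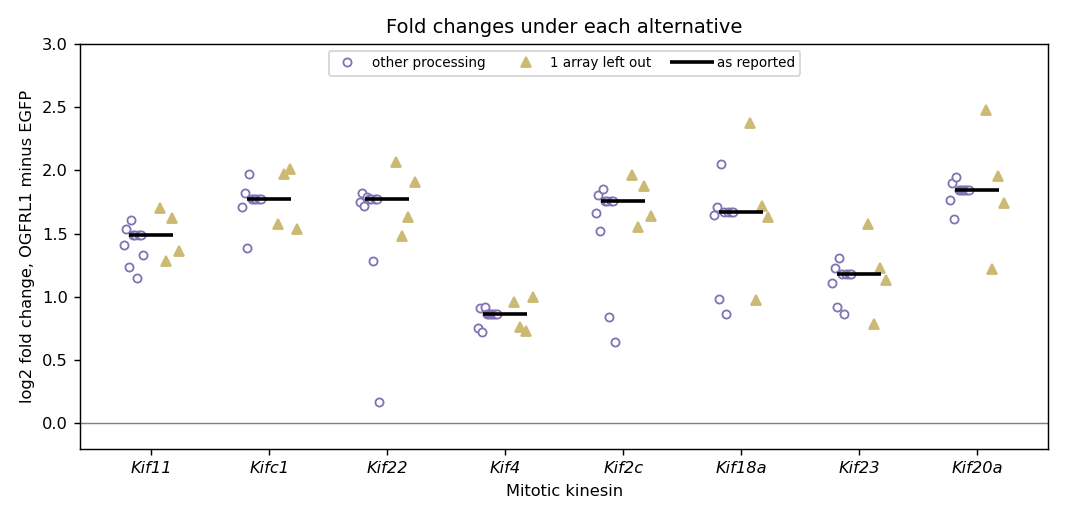
Log2 fold change of each tested mitotic kinesin as reported (black bar), under other processing (open circles) and with 1 array left out (triangles). Every value is above 0, which most settings could not change because the groups do not overlap. Kif18a and Kif20a spread most with the array left out, and the lowest point, 0.17, is Kif22 read from another probe set.

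Of 39 other kinesin and kinesin-associated genes listed, 24 were tested and 0 passed the threshold. An unadjusted p under 0.05 in limma was reached by 3. Of these, 2 were upward, a count near the 9.01% of all genes tested. Further mitotic kinesins were among the 24, and the 5 of these tested had a median log2 fold change of 0.65, with 5 of 5 above 0. The median over all genes tested was 0.04. The remaining 19 had a median of 0.03, and of these 1 had an unadjusted p under 0.05, downward. Among the further mitotic kinesins, Cenpe, the kinetochore motor that brings chromosomes to the metaphase plate, came nearest to the members. It had 39.1 and 49.9 in OGFRL1 livers, against 12 and 13.5 in EGFP livers (log2 fold change 1.55 ± 0.28, limma adjusted p = 0.07). Kif20b, which acts in cytokinesis, had a log2 fold change of 1.08 ± 0.42, Kif18b, a depolymerase that trims astral microtubules, 0.65 ± 0.31, and the centriolar Kif24 0.37 ± 0.43. Kif2a, a depolymerase that resting cells also use, had 0.44 ± 0.21.

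The 16 tested transport, ciliary and other kinesins had a median log2 fold change of 0.04, equal to that of all genes, with 9 above 0 and 7 below. Kif5b, the widely expressed conventional kinesin heavy chain, had signals of 296 and 307 in OGFRL1 livers and 180.0 and 263 in EGFP livers (0.46 ± 0.20). Kif1b, a motor of mitochondria and vesicles, had 432 and 405 in OGFRL1 livers, against 568 and 558 in EGFP livers (-0.43 ± 0.13, limma adjusted p = 0.205). Kif5c had 0.80 ± 0.42, but with a mean of 8.00 over the EGFP arrays it passed the minimum only through the OGFRL1 arrays. The light chain Klc4, which links conventional kinesin to cargo, had -0.35 ± 0.15. The difference between the mitotic kinesins and the others was described by these medians and was not tested as such.

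**Figure D4:**
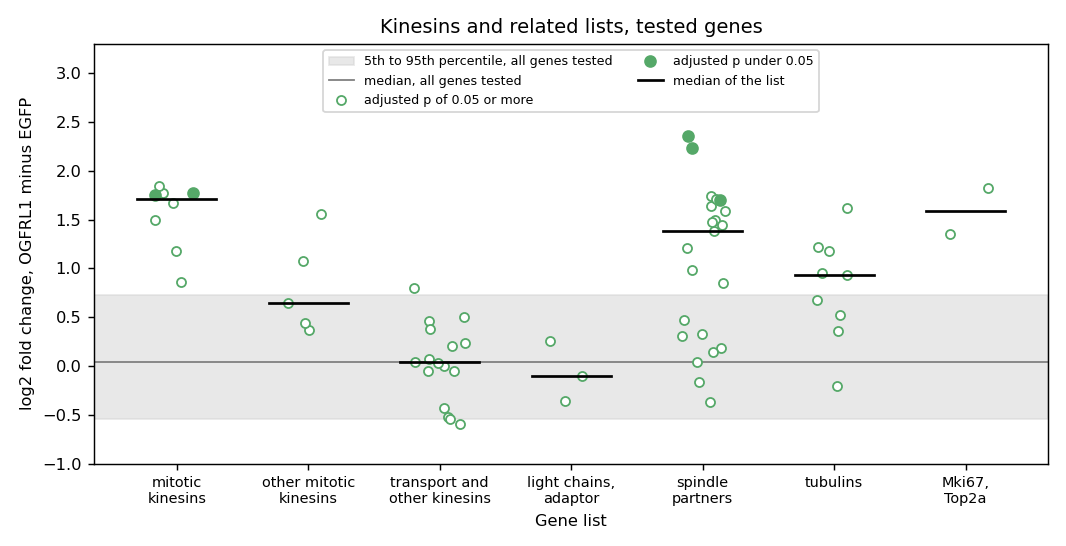
Log2 fold change, OGFRL1 minus EGFP, of the tested genes of each list, with the list's median as a black bar. The grey band spans the 5th to 95th percentile of all genes tested (-0.55 to 0.73). The mitotic kinesins lie above the band, while the transport kinesins lie mostly within it.

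Transcripts of proteins that load, activate or partner the mitotic kinesins were partly higher in OGFRL1 livers. Of 24 listed partners 23 were tested, with a median log2 fold change of 1.39, and 3 rose past the threshold, as did 0.36% of all genes tested. Both OGFRL1 arrays lay above both EGFP arrays for 17 of the 23 and below them for 2, against 27% and 20.5% of all genes tested. Birc5 and Cdca8 belong to the chromosomal passenger complex that Kif20a carries. Birc5 read 421 and 471 in OGFRL1 livers, against 102 and 69.0 in EGFP livers (log2 fold change 2.36 ± 0.21, limma adjusted p = 0.0364), and Cdca8 325 and 383 in OGFRL1 livers, against 126 and 88.9 in EGFP livers (1.70 ± 0.21, adjusted p = 0.0433). Ect2, the exchange factor that centralspindlin recruits to start furrowing, had a log2 fold change of 2.23 ± 0.27 (limma adjusted p = 0.0433).

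The direct partners below were chosen after their values were seen. Racgap1, the partner of Kif23 in centralspindlin, had a log2 fold change of 1.21 ± 0.31 beside 1.18 for Kif23. Prc1, the microtubule bundler that brings Kif4 to the midzone, had 1.59 ± 0.35 beside 0.86 for Kif4. Tpx2, which targets Kif11 and Kif15 to the spindle, had 1.64 ± 0.24 (limma adjusted p = 0.0523). Cit, the citron kinase that works with Kif14, had 80.7 and 64.4 in OGFRL1 livers and 92.7 and 95.6 in EGFP livers (-0.37 ± 0.19, adjusted p = 0.423).

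Tubulins, the track on which kinesins run, had a median log2 fold change of 0.94 over 9 tested genes, and 0 passed the threshold, with 6 at an unadjusted p under 0.05 upward in limma, against 9.01% of all genes tested. Tubb6 had 1.62 ± 0.36, Tubb2b 1.22 ± 0.31, Tuba8 1.18 ± 0.26 and Tuba1a 0.96 ± 0.17, the last also being a probe set that may match other sequences. Both proliferation markers were higher on both OGFRL1 arrays without passing over all genes. Top2a, the topoisomerase of dividing cells, read 280 and 404 in OGFRL1 livers, against 202 and 82.8 in EGFP livers (1.35 ± 0.40, adjusted p = 0.195). For Mki67 the log2 fold change was 1.83 ± 0.33.

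Markers of cell types were examined on the same arrays. Of 54 markers in 10 lists 39 were tested, and 0 passed the threshold in limma, with 11 at an unadjusted p under 0.05 in either direction. Upward were 4 stellate cell and myofibroblast markers and 1 megakaryocyte marker, against 9.01% of all genes tested. Downward were 5 hepatocyte markers and 1 erythroid marker, for which no share over all genes is given. Over all genes tested, both OGFRL1 arrays lay below both EGFP arrays for 20.5% and above them for 27%. For 5 of 5 tested hepatocyte markers both OGFRL1 arrays lay below both EGFP arrays, with summed signals of 37495 and 41537 in OGFRL1 livers and 71674 and 50455 in EGFP livers. For 5 of 6 markers of stellate cells and myofibroblasts both OGFRL1 arrays lay above both EGFP arrays, and for 1 below them, with summed signals of 782 and 958 in OGFRL1 livers and 413 and 438 in EGFP livers. Summed macrophage markers overlapped, at 3686 and 5876 in OGFRL1 livers and 6653 and 3249 in EGFP livers, as did those of neutrophils, B cells and cholangiocytes. For 3 of 5 endothelial markers both OGFRL1 arrays were the lower ones, and the sums were 1232 and 1222 in OGFRL1 livers, against 1433 and 1386 in EGFP livers. Erythroid markers, of precursors that divide in blood-forming tissue, were lower for 2 of 2 tested. They summed to 181 and 150 in OGFRL1 livers, against 310 and 446 in EGFP livers. NK and T cell markers summed to 56.0 and 60.3 in OGFRL1 livers, against 112 and 77.0 in EGFP livers. The groups nevertheless overlapped for each of the 3 NK and T cell markers tested. Megakaryocyte markers summed to 175 and 201 in OGFRL1 livers, against 146 and 146 in EGFP livers. Of the 2 tested, Pf4 was higher on both OGFRL1 arrays and Itga2b overlapped. These sums include listed markers that were too dim to test. No marker was listed at 0, and the B cell marker Cd79a was below 1 on every array. The part of these differences in the kinesin signals was not tested.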

How the data were processed

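Liver RNA from 4 samples was hybridised to single-colour Affymetrix mouse arrays. The authors deposited 1 MAS5 signal intensity per probe set on a linear scale, MAS5 being named in the submitters' processing notes. Its version and the detection calls are not given in the sources used here. The mean between the 2nd and 98th percentile was 100.001 on every array, so arrays were scaled as a whole, and no further normalization was applied. Groups came from the sample titles.

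Intensities were transformed to log2(signal + 3.51), where the pseudocount is the 25th percentile over the 4 arrays. Each of 18193 genes with a probe set of 1 symbol was represented by its brightest probe set, and 11942 genes with a mean signal of at least 11.6, the median over probe sets, were tested. OGFRL1 minus EGFP was fitted in R 4.3.3 by limma 3.58.1 (lmFit, eBayes with an intensity trend, 2 residual and 4.48 prior degrees of freedom, 2-sided, Benjamini-Hochberg threshold 0.05). A second fit took all 22516 probe sets above the same minimum. The pipeline was tested on simulated data. The number of arrays limits the precision, and an exact permutation test of 2 against 2 arrays cannot go below p = 0.333.

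Members and lists were chosen with earlier results of these data known. The naming rule took the 10 kinesins, every spindle partner past the threshold, 5 further mitotic kinesins, and up to 4 genes by absolute moderated t among the remaining kinesins and among the tubulins, with Mki67 and Top2a always. Promoter sequences are from RefSeq, GRCm38.p6. Alternatives changed the normalization, pseudocount, filter, choice of probe set, variance model, replicate block and arrays. Tables and figures used matplotlib 3.10.9, numpy 2.4.6 and pandas 2.3.3 under Python 3.11.15.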

Additional observations from a re-analysis of the deposited data

How the results depend on the processing

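Over 14 alternatives, each of the 109 values of the 8 tested kinesins was above 0. Where groups do not overlap, leaving out an array or changing the pseudocount, or replacing it by a floor, cannot reverse a value. The filters, the variance model and the replicate block left the fold changes as they were. The sign of most of the 109 values was thus fixed beforehand. Against 2 kinesins and 3 partners past the threshold, quantile normalization, the stricter filter (mean signal of at least 50), no filter and no intensity trend gave 0 of both, while the mean over probe sets gave 0 kinesins and 1 partner. Choosing probe sets by suffix, an alternative chosen after seeing the data, gave 1 kinesin (Kifc1, adjusted p = 0.0494) with Kif22 at 0.17 and Kif2c at 0.64, and 4 times the pseudocount gave 5 partners. The kinesin median of 1.72 was 1.31 with 4 times the pseudocount, 1.01 with the mean over probe sets and 1.26 by suffix. With 1 array left out, the kinesins past the threshold were 0 to 7, the partners 0 to 15, the other kinesins 0 to 2, the kinesin probe sets 0 to 9 and the median 1.26 to 1.83. Each fit with an array left out has 1 array in a group, and the number of all genes passing also rose or fell with that array. The counts from these fits thus cannot be read as an excess of kinesins or partners, and only the median is an effect size. With the replicate block 2 kinesins and 3 partners passed, as without it, and 1 kinesin probe set passed against 0. No label ties a replicate number to a mouse or day, and same-numbered arrays deviated from their group means with a correlation of -0.28 across genes. Over all genes 61 passed, 4 after quantile normalization, 94 with 4 times the pseudocount, 3 under the stricter filter, 0 with no filter, 0 with no intensity trend, 13 with the mean over probe sets and 107 by suffix. The cause of these differences was not tested. Dim signals limit Kif14, Kif15 and Kif18a.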
